A study of Homo sapiens with 9 samples.

Results

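The genes of the cytosolic ribosome's proteins were followed in RNA-seq counts from OVCAR3, an established line of human epithelial ovarian cancer. They were chosen by name, as the protein-coding genes whose symbols are RPL or RPS with a digit, plus RPLP0, RPLP1, RPLP2 and RPSA, without the ribosomal S6 kinases, the L-suffixed paralogs and the pseudogenes. This gave 79 of the 60660 genes in the count matrix, 46 of the large and 33 of the small subunit. A filter on low counts kept 17794 genes and 77 of the 79. RPS4Y1 and RPS4Y2 had 0 counts in every library, where 3 counts, the limit that a count of 0 allows, equal 0.117 to 0.271 CPM, counts per 1000000 scaled counts of the library.

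The study changed the level of CTCFL (BORIS), a paralog of the chromatin factor CTCF normally restricted to the testis, to find the genes that respond. The 3 groups of 3 biological replicates were sequenced by RNA-seq, and each replicate pooled 3 technical ones. Control cells carried no CTCFL treatment according to the labels and a LacZ plasmid according to the methods, CTCFL-OE cells were transiently transfected with 2 µg of the pCpGfree-vitroHBORIS plasmid and collected after 48 h, and CTCFL-KD cells were treated with siRNA. The knockdown followed an earlier publication, so any difference between CTCFL-KD and Control cannot be told apart from plasmid against siRNA transfection or from the experiment. All libraries come from 1 line, and RNA per cell cannot be told apart from the mix of cells in bulk samples. The Control libraries held 6, 9 and 10 counts of CTCFL, the CTCFL-OE libraries 36, 34 and 72, and the CTCFL-KD libraries 0, 1 and 0. These counts ordered the groups as their labels do.

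A ribosome is built from a small subunit, which reads the messenger RNA, and a large subunit, which joins the amino acids, and each carries its own set of RPS or RPL proteins on a core of ribosomal RNA. Most of these proteins are needed in equal copies, their genes are among the most highly expressed of any dividing cell, and their short messenger RNAs begin with a 5' terminal oligopyrimidine (TOP) tract, a C followed by a run of pyrimidines, through which the mTOR pathway controls their translation. Because many processed pseudogenes copy them, and because their transcripts are short, their counts depend on how reads are assigned and on how a library recovers short RNA.

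The totals ran from 14332622 counts in CTCFL-KD library 1 to 24490080 in Control library 2. CTCFL-KD library 1 stood apart. Its scaling factor by the trimmed mean of M-values (TMM) was 0.775, against 0.945 to 1.09 in the other libraries, and its counts leaned towards short transcripts. Genes of chromosome M, the mitochondrial genome, took 6.16 to 6.52% of the Control counts, 7.40, 12.4 and 14.9% after overexpression and 11.8, 9.64 and 7.80% after knockdown. Epithelial and ovarian carcinoma markers were expressed in every group, with summed levels of 3498 to 3604 and 986 to 1061 CPM in Control. In CTCFL-KD the epithelial sum was 6616 to 13069 CPM and the ovarian sum 2909 to 3110 CPM, both above Control. The 10 fibroblast markers summed to 28 to 33.8 CPM in Control and 37.8 to 43.0 in CTCFL-KD, with PDGFRA and THY1 at 3 counts or fewer there. COL1A2, COL3A1 and DCN were at 3 counts or fewer in every Control and CTCFL-OE library, but not in every CTCFL-KD library. The 5 leukocyte markers summed to 0.551 to 0.855 CPM in Control and 2.56 to 4.51 in CTCFL-KD, with CD3E and CD68 at 3 counts or fewer in every library. The part of these markers in the results was not tested.

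The first transcribed bases of 7 of these genes are shown as examples, and 6 of the 7 carry the TOP tract. The part of the tract in the results was not tested. Each window runs from 10 bases before the RefSeq start to 20 bases from the start on, in GRCh38.p14, on the strand of the gene, with the tract in capitals. RPS16, RPS21, RPLP1 and RPS18 are genes whose counts rose in CTCFL-KD, RPS12 is among the lowest there, RPL22 fell there without CTCFL-KD library 1, and RPS4X is shown as a start without the tract.
RPS16: ccctagCTTTCCTTTTCCggttgcggcgcc
RPS21: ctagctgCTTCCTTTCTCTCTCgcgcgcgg
RPLP1: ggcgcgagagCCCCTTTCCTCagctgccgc
RPS18: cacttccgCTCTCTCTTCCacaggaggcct
RPS12: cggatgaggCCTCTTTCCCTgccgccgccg
RPL22: cgctcaCCTCCCTTTCTaactccgctgccg
RPS4X: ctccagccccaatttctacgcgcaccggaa
The windows lie at chr19:39435930-39435959 on the minus strand for RPS16, chr20:62387093-62387122 on the plus strand for RPS21, chr15:69452808-69452837 on the plus strand for RPLP1, chr6:33272065-33272094 on the plus strand for RPS18, chr6:132814559-132814588 on the plus strand for RPS12, chr1:6199576-6199605 on the minus strand for RPL22 and chrX:72277229-72277258 on the minus strand for RPS4X. The RefSeq table of promoters held 64 of the 79 genes. A C followed by at least 4 pyrimidines, read on the gene's strand and beginning within 5 bases of an annotated start, was found in 54 of these 64 (84.4%) and in 29.2% of 11012 other protein-coding genes tested. The 53 tested genes with it had a median log2 difference of 0.55 in CTCFL-KD against Control and the 9 without it 0.36, and both medians were negative without CTCFL-KD library 1 (-0.14 and -0.29). The letters CAGGGGGC, a core shared by CTCF and CTCFL sites, stood on either strand of the 300-base promoter of 1 of the 64 genes, RPL15, of 7.85% of the other protein-coding genes tested and of 5.17% of all 27305 genes in the table. A match or its absence in this window describes the letters alone.

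In Control cells the family spanned a wide range of levels per length of messenger RNA, taken from the shortest annotated transcript with the full coding sequence. The highest were RPS2, which lines the entry of the messenger RNA channel, at 6074 CPM per kb, RPS3, its neighbour there, at 4246, and RPS24 at 2492. The median gene stood at 812 CPM per kb. The lowest was RPL36A at 10.1 CPM per kb, and RPL17 was also low at 30.9. In 5 members, among them RPL17, RPS10, RPL26 and RPL36A, more than 40% of the exon bases lie in another annotated gene on the same strand, and counting of shared bases can leave reads unassigned. For RPL17, RPS10 and RPL36A that gene includes a readthrough transcript (RPL17-C18orf32, RPS10-NUDT3 and RPL36A-HNRNPH2), none of which exceeded 0.123 CPM in any library. The levels of these 5 genes are uncertain, and the part of the overlap in the low values was not tested. RPL17 had only 180 to 529 counts in a library and RPL36A 100 to 226. Pseudogenes named after the family held 12.8 to 15.8 counts for every 100 counts on the genes themselves, with the lowest ratio in CTCFL-KD library 1, and shared reads between a gene and its copies cannot be separated here.

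As a whole the family varied widely between the libraries of CTCFL-OE and of CTCFL-KD. Its share of all counts was 6.10, 6.08 and 5.92% in the Control libraries (6.04% ± 0.103, SD, n = 3). CTCFL-OE gave 6.42, 4.76 and 3.98% (5.05% ± 1.25), and CTCFL-KD gave 10.4, 5.14 and 5.27% (6.95% ± 3.02). Control and CTCFL-OE overlapped through CTCFL-OE library 1, and CTCFL-KD lay on both sides of Control. Both subunits moved together in each library, the large subunit taking 3.14 to 3.24% of Control counts, 5.47% of CTCFL-KD library 1 and 2.72 and 2.74% of the other CTCFL-KD libraries. The share on chromosome M differed in the same libraries, and its part in these shares was not tested. Without chromosome M genes in the total, the means were 6.44, 5.68 and 7.74% in Control, CTCFL-OE and CTCFL-KD.

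**Figure D1:**
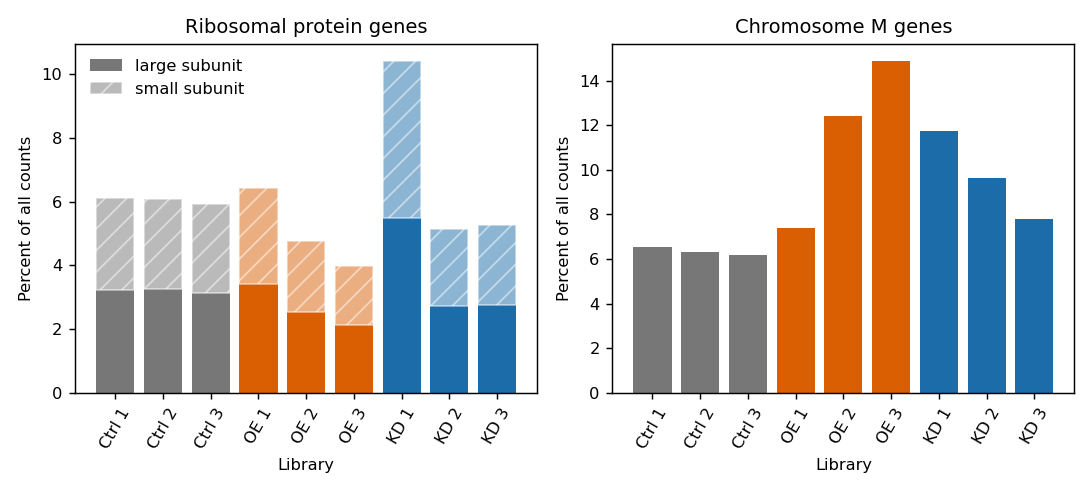
Percent of all counts on the ribosomal protein genes (left, large and small subunit stacked) and on chromosome M genes (right) in each of the 9 libraries, with no error bars since each bar is 1 library. The family took 10.4% in CTCFL-KD library 1 and 3.98% in CTCFL-OE library 3, the extremes of the 9, and 5.92 to 6.10% in Control.

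Gene by gene the pattern was the same. Relative to the Control mean of each gene, the median over the 77 genes was 0.023, -0.35 and -0.43 on the log2 scale for CTCFL-OE libraries 1, 2 and 3, and 1.26, -0.16 and -0.20 for those of CTCFL-KD. In CTCFL-KD library 1, 76 of the 77 genes were above all 3 Control libraries, the exception being RPL17, as were 47.5% of all genes tested. In CTCFL-KD libraries 2 and 3, 51 and 47 genes were below all 3 Control libraries, and 14 and 19 were above. Of all genes tested, 43.1 and 43.4% were below in these 2 libraries, and the share above was not counted. In CTCFL-OE libraries 2 and 3, 75 genes each were below all Controls, and only 16 were in library 1, against 42.7, 44 and 38.3% of all genes tested in libraries 2, 3 and 1. The medians over all genes tested ran from -0.039 to 0.047 over the 9 libraries.

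**Figure D2:**
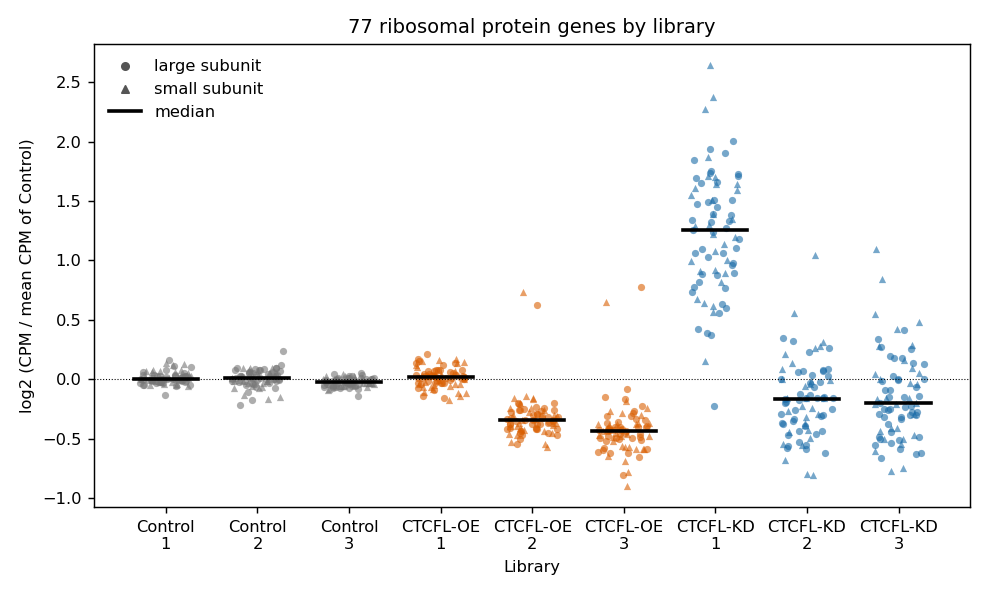
Log2 ratio of CPM to the Control mean for 77 ribosomal protein genes (circles, large subunit; triangles, small subunit) in each library, with black bars at the medians. The median was 1.26 in CTCFL-KD library 1 and -0.16 and -0.20 in CTCFL-KD libraries 2 and 3, so the direction of the family in CTCFL-KD turned without library 1.

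Overexpression of CTCFL did not move any ribosomal protein gene past the test. With edgeR's quasi-likelihood test and Benjamini-Hochberg adjustment at 0.1, 0 of the 77 genes passed, against 3.15% of all genes tested (1.99% rose and 1.16% fell), and 0 had an unadjusted p under 0.05. DESeq2 also called 0. The lowest adjusted p was 0.32. 75 of the 77 log2 fold changes were negative, with a median of -0.24 (quartiles -0.29 and -0.19), and the median over all genes tested was -0.010. Leaving out CTCFL-OE library 1 moved the median to -0.41, and leaving out library 3 moved it to -0.15. All 3 CTCFL-OE libraries were below all Controls in 16 genes, while 20.8% of all genes tested did not overlap in that direction.

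Of the 5 lowest fold changes in CTCFL-OE, 4 belonged to the small subunit. RPS3A, a protein of the subunit's platform side, had 872, 954 and 887 CPM in Control and 801, 620 and 484 with CTCFL-OE (log2 fold change -0.51, SE 0.33, adjusted p = 0.44). RPS12, a protein of the beak of the small subunit, had 728, 754 and 697 CPM in Control and 695, 503 and 423 in CTCFL-OE (-0.43, SE 0.29, adjusted p = 0.46). In both genes all 3 CTCFL-OE libraries were below Control, library 1 by the least. RPS23, which contacts the decoding centre, had -0.42, RPL34 -0.41 and RPS19, the gene most often mutated in Diamond-Blackfan anaemia, -0.38, with adjusted p between 0.47 and 0.65. Without CTCFL-KD library 1, whose spread enters the shared variance estimate, 4 genes passed downwards (RPS3A, adjusted p = 0.066, RPS19, 0.071, RPS23, 0.078, and RPS27A, 0.093) and 2 passed upwards, among them RPL36A, against 27.4% of all genes in that fit.

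Against this direction, 2 members had positive fold changes in CTCFL-OE, among them RPL36A. RPL36A had 7.36, 8.20 and 7.45 CPM in Control and 7.71, 11.8 and 13.2 in CTCFL-OE (0.50, SE 0.26, adjusted p = 0.35). It is among the 5 genes whose exons overlap another gene, and is counted at a low level, as given above. Next in order were RPS28 (-0.060), RPS10 (-0.065) and RPL18 (-0.094), whose libraries overlapped Control.

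Knockdown gave a split family. With all libraries, 5 of the 77 genes rose and 0 fell at an adjusted p under 0.05, against 21.4 and 16.8% of all genes tested (38.2% in either direction). This order depended on the filter. DESeq2 called 12 members (15.6%) and 31.9% of the 23630 genes it gave an adjusted p, whereas edgeR with no low-count filter called 21 members (27.3%), all of which rose, and 21.2% of 37834 genes. 68 of the 77 fold changes were positive and the median was 0.45, where the median over all genes was 0.077. Without CTCFL-KD library 1 the median turned to -0.20, 22 fold changes stayed positive, 4 genes rose and 15 fell, against 26.2 and 23.7% of all genes in that fit. 46 of the 77 genes changed sign, all of them from positive (0.012 to 0.87) to negative, as did 7.78% of all genes tested. In 44 members library 1 was above all Controls and libraries 2 and 3 were below all of them, a pattern of 8.7% of all genes tested. CTCFL-KD library 1 was above libraries 2 and 3 in 77 of 77 members and in 44.6% of all genes tested.

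**Figure D3:**
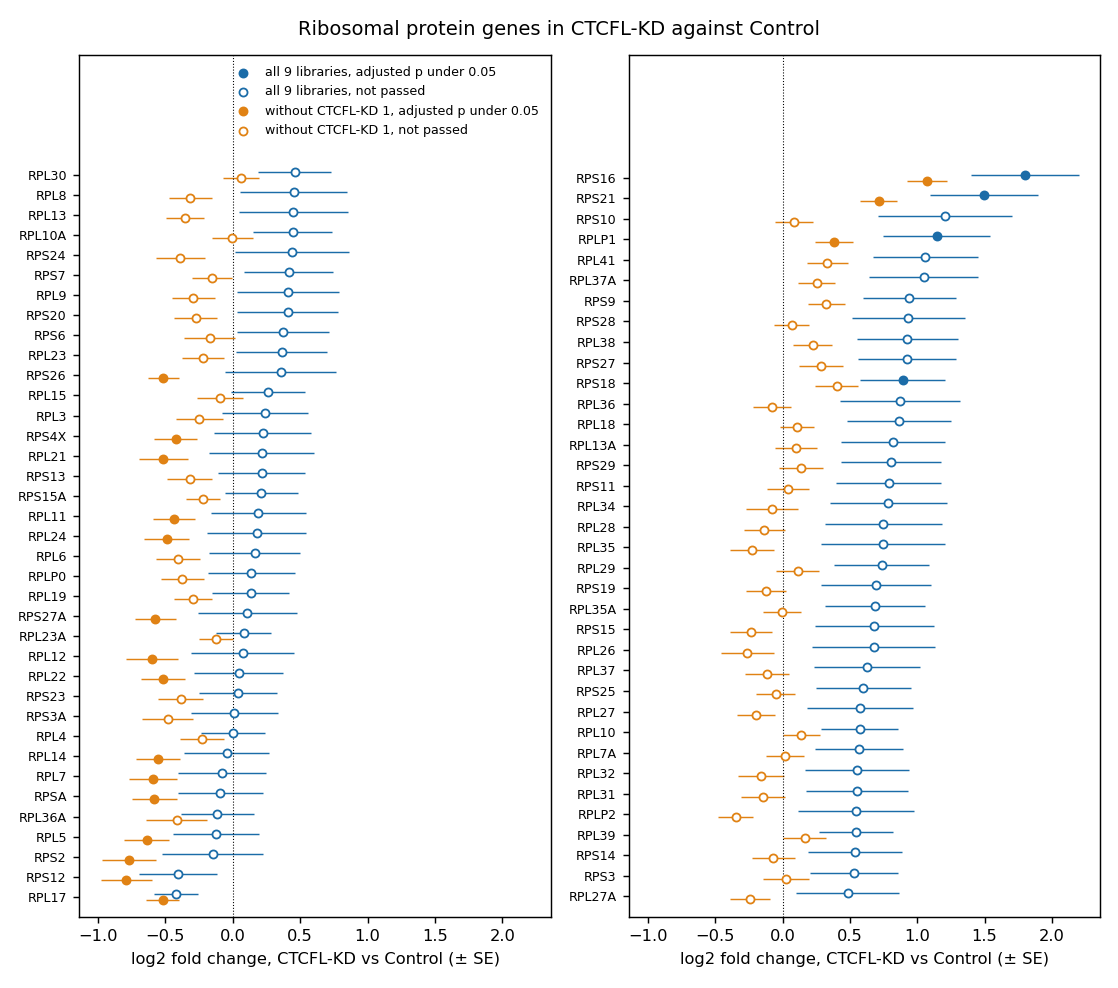
Log2 fold change of CTCFL-KD against Control with its standard error for 73 of the 77 ribosomal protein genes, with all 9 libraries (blue) and without CTCFL-KD library 1 (orange), ordered by the former. Filled points passed an adjusted p under 0.05. Of these, 43 genes lie right of 0 in blue and left of 0 in orange, and RPS16, RPS21 and RPLP1 are filled on the right in both.

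RPS16, RPS21 and RPLP1 rose in both fits. RPS16, a small-subunit protein whose tail reaches the transfer RNA in the peptidyl site, had 1484, 1443 and 1438 CPM in Control and 9096, 2998 and 3112 in CTCFL-KD. Its log2 fold change was 1.80 (SE 0.40, adjusted p = 0.0052) and 1.07 (SE 0.15, adjusted p = 0.00027) without library 1. All 3 CTCFL-KD libraries were far above every Control library, library 1 the most. RPS21, another small-subunit protein, had 396, 370 and 370 CPM in Control and 1965, 557 and 680 in CTCFL-KD (1.5, SE 0.40, adjusted p = 0.014, and 0.71, SE 0.14, adjusted p = 0.0017, without library 1). RPLP1, which pairs with RPLP2 on the stalk that recruits the translation factors, had 902, 924 and 855 CPM in Control and 3596, 1135 and 1190 in CTCFL-KD (1.14, SE 0.40, adjusted p = 0.042, and 0.38, SE 0.14, adjusted p = 0.045, without library 1). The groups did not overlap in any of these 3 genes, and libraries 2 and 3 lay close together each time. RPS16 passed with every single library left out, and RPS21 missed without Control library 2 or 3 (adjusted p = 0.051 and 0.052). RPLP1 missed without any 1 Control library (0.11 to 0.12) or CTCFL-OE library (0.060 to 0.064) and with the 2 groups fitted alone (0.097).

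RPS18, a protein of the small-subunit head, had 697, 774 and 705 CPM in Control and 2126, 900 and 1013 in CTCFL-KD. It passed with all libraries (0.89, SE 0.31, adjusted p = 0.044) and not without library 1 (0.40, SE 0.16, adjusted p = 0.056), any 1 Control library (0.10 to 0.13) or any 1 CTCFL-OE library (0.054 to 0.068), though all 3 CTCFL-KD libraries were above Control. RPS16, RPS21 and RPLP1 also exceeded a log2 fold change of 1, as 23.2% of all genes did while passing, and RPLP1 dropped to 0.96 when the replicate number was used as a block. In all, 13 members had every CTCFL-KD library above every Control library, among them RPL10, RPL13A, RPL29, RPL37A, RPL38, RPL41, RPLP1, RPS16, RPS18, RPS21, RPS27 and RPS9, against 28.7% of all genes tested.

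RPS16 lies at chr19:39433137-39435949 (GRCh38, GENCODE 44, 5 exons, minus strand), and its rise came with that of its neighbours. Of 61 other genes tested within 1 Mb, 46 rose and 3 fell in CTCFL-KD, with a median log2 fold change of 1.20, and 43 rose and 3 fell without library 1 (median 0.92). They include AKT2 (1.20, adjusted p = 0.00034) and FBL (1.33, adjusted p = 0.015, and 0.66 without library 1), the methyltransferase of box C/D ribonucleoproteins that modify ribosomal RNA. Of all genes tested 21.4% rose and 16.8% fell, or 26.2 and 23.7% without library 1. Of 1137 chromosome 19 genes outside the family, 377 rose and 98 fell. Around RPS18 12 of 35 neighbours rose and 3 fell. Around RPS21 3 of 25 rose and 2 fell, and around RPLP1 2 of 9 rose and 1 fell. Without library 1 these were 14 and 4, 4 and 4, and 3 and 2. Around members at the lower end, 2 of 8 neighbours of RPS12 rose and 0 fell, 17 of 76 of RPS2 rose and 3 fell, and 3 of 17 of RPL5 rose and 5 fell. Without library 1, 2 rose and 1 fell around RPS12, 19 and 14 around RPS2, and 3 and 6 around RPL5. Chromosome 19 holds 12 members, whose median was 0.84 (0.055 without library 1), against 0.41 (-0.23 without library 1) for the 65 others, and the other 1137 genes of chromosome 19 had a median of 0.41 (0.18 without library 1). These neighbourhoods were looked at after the members' values were seen, DNA copy number was not measured here, and the part of position in these results was not tested.

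**Figure D4:**
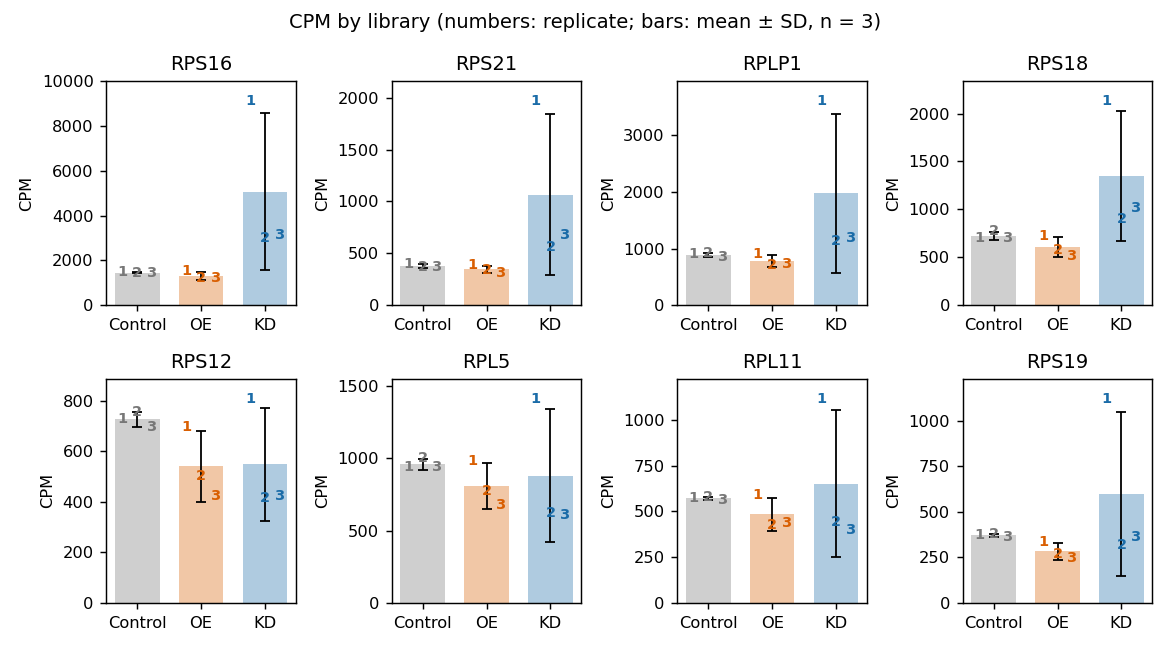
CPM of 8 ribosomal protein genes in Control, CTCFL-OE and CTCFL-KD, as mean ± SD (n = 3) with each library drawn as its replicate number. RPS16, RPS21, RPLP1 and RPS18 have all 3 CTCFL-KD libraries above Control, whereas in RPS12, RPL5, RPL11 and RPS19 library 1 is above Control and libraries 2 and 3 are at or below it.

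The lower end of the CTCFL-KD comparison held RPL17 (-0.42), RPS12 (-0.41), RPS2 (-0.15), RPL5 (-0.13) and RPL36A (-0.11), none of which passed with all libraries. RPL17, a protein at the exit of the nascent chain tunnel, was the only member with all 3 CTCFL-KD libraries (16.2, 13.8 and 12.6 CPM) below all Controls (18.3, 20.6 and 18 CPM), a pattern held by 27.6% of all genes tested. Its adjusted p was 0.063, 0.0051 without library 1 (-0.52, SE 0.12), and its reads are those of the overlapped gene described above. RPS12 had 806, 414 and 425 CPM in CTCFL-KD, above Control in library 1 and well below it in the others, and its log2 fold change was -0.79 (SE 0.19, adjusted p = 0.0063) without library 1. RPS2 had 6043, 5458 and 5718 CPM in Control and 8808, 3300 and 3415 in CTCFL-KD (-0.77, SE 0.20, adjusted p = 0.010, without library 1). The 13 others that fell without library 1 were RPL5, RPL7, RPL11, RPL12, RPL14, RPL17, RPL21, RPL22, RPL24, RPS26, RPS27A, RPS4X and RPSA, with log2 fold changes from -0.42 to -0.64.

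RPL5 and RPL11 bind 5S ribosomal RNA together, and outside the ribosome they bind MDM2. RPL5 had 938, 1005 and 939 CPM in Control, 982, 772 and 675 with overexpression, and 1411, 624 and 607 with knockdown. RPL11 had 571, 580 and 562 CPM in Control, 588, 426 and 435 with overexpression, and 1113, 441 and 400 with knockdown. The 2 genes had the same order of libraries at both ends, with CTCFL-KD library 1 highest and CTCFL-KD library 3 lowest. Without library 1 they had log2 fold changes of -0.64 (SE 0.17, adjusted p = 0.0091) and -0.44 (SE 0.16, adjusted p = 0.040).

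The remaining members fixed for naming followed the same course. RPLP0, the base of the stalk, had 1641, 1596 and 1609 CPM in Control and 2847, 1191 and 1292 in CTCFL-KD, and RPLP2 had 499, 515 and 468 against 1390, 358 and 416. Unlike RPLP1, both were below Control in libraries 2 and 3 (-0.38, adjusted p = 0.074, and -0.35, adjusted p = 0.051, without library 1). RPSA, a small-subunit protein also known as a laminin receptor precursor, had 1226, 1173 and 1208 CPM in Control and 1783, 752 and 848 in CTCFL-KD (-0.58, adjusted p = 0.015, without library 1).

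RPS6, the substrate of the S6 kinases, had 1544, 1622 and 1530 CPM in Control, 1680, 1210 and 1063 with overexpression, and 3305, 1406 and 1365 with knockdown. RPS19 had 374, 378 and 363 CPM in Control and 1120, 318 and 363 in CTCFL-KD. In edgeR's fit with all libraries neither passed in any of the 3 comparisons, though RPS19 passed upwards against CTCFL-OE with DESeq2, with no low-count filter and with the replicate block and offsets. RPS4X, whose homologues are on the Y chromosome, had 1089, 1131 and 1081 CPM in Control and 2211, 842 and 794 in CTCFL-KD, and RPL22, which also binds viral RNA, had 544, 601 and 549 against 959, 384 and 403. Both turned from positive (0.22 and 0.043) to negative without library 1 (-0.42, adjusted p = 0.046, and -0.52, adjusted p = 0.025).

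A smaller set stayed at or above Control, and RPS24, given with it for its level, did not. RPL10, which joins the large subunit late in its assembly, had 498, 482 and 494 CPM in Control and 1113, 517 and 563 in CTCFL-KD (0.57, SE 0.28, adjusted p = 0.13). RPL39, at the tunnel exit, had 592, 628 and 562 CPM in Control and 1269, 622 and 707 in CTCFL-KD (0.54, SE 0.28, adjusted p = 0.14), so its libraries overlapped. RPS27, a zinc finger protein, had 648, 610 and 591 CPM in Control and 2012, 750 and 747 in CTCFL-KD (0.92, SE 0.36, adjusted p = 0.066). RPL41, the smallest protein of the ribosome, had 911, 909 and 870 CPM in Control and 3355, 1118 and 1132 in CTCFL-KD (1.06, SE 0.39, adjusted p = 0.052). RPS10 had a high fold change (1.20, adjusted p = 0.078) that rested on 1 library, with 25, 22.0 and 21.4 CPM in Control and 110, 22.8 and 25.5 in CTCFL-KD, and its log2 fold change was 0.086 without library 1. RPS24 and RPS3, among the highest per length, had fold changes of 0.44 and 0.53 with all libraries and of -0.39 and 0.026 without library 1, and none of these passed.

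The lean of CTCFL-KD library 1 towards short transcripts was measured over protein-coding genes as the log2 CPM of library 1 minus the mean of libraries 2 and 3. Across 13628 genes it fell with the length of the canonical transcript, with a Spearman correlation of -0.65, a description since genes share their libraries and are not independent replicates. Its median was 0.90 over the non-members of the shortest quintile (207 to 1843 bases) and -0.72 over those of the longest. The ribosomal protein genes had a median of 1.43 and a median canonical length of 785 bases, against 3362 bases over all protein-coding genes tested, and 60 of the 77 lay in the shortest quintile. Within that quintile their median was 1.46. In bins of 200 bases the gap differed from bin to bin. Between 400 and 599 bases the 18 members had a median of 1.59 and the other genes 1.36, and between 600 and 799 bases the 17 members had 1.42 and the others 1.41. Between 1000 and 1199 bases the 9 members had 1.53 and the others 1.01, and between 1200 and 1399 bases the 6 members had 1.38 and the others 0.86.

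The gap to other genes was wider among members with long annotated transcripts. The 11 members in the second quintile (1844 to 2798 bases) had a median of 1.28 against 0.32 for its other genes. Canonical transcripts of some members are much longer than the usual messenger RNA, up to 7573 bases for RPL37, so their place on the length axis is uncertain. In all, 56 of the 72 members in a bin of at least 20 genes were above the median of the bin's other genes, by 0.29 at the median over the 72. With the union of exons as length the correlation was -0.51, and with the coding sequence, an alternative added after the data were seen, -0.47. The part of length in the members' difference was not tested.

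**Figure D5:**
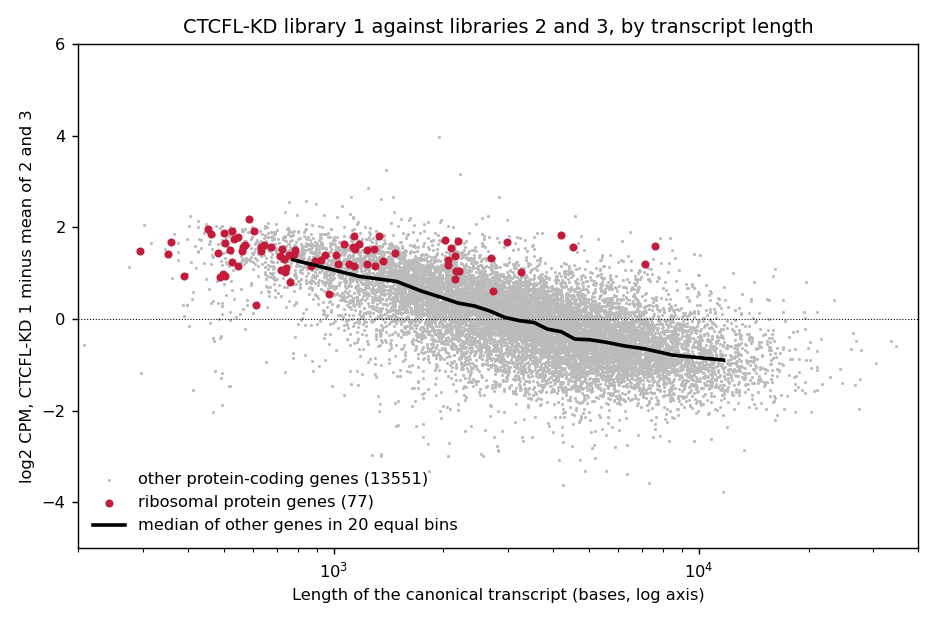
Log2 CPM of CTCFL-KD library 1 minus the mean of libraries 2 and 3 against the length of the canonical transcript (log axis) for 13628 protein-coding genes, of which 2 lie outside the axes. Red points are the 77 ribosomal protein genes, at a median of 1.43, and the black line is the median of the other genes in 20 bins of equal size, which falls with length.

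The comparison was repeated with offsets for transcript length and GC content, fitted for each library. With them the members' median in CTCFL-KD was 0.25, and 8 genes rose (RPL37A, RPL39, RPL41, RPLP1, RPS16, RPS18, RPS21 and RPS27) and 3 fell (RPL17, RPS12 and RPS2), against 44.8% of all genes. RPS16 had a log2 fold change of 1.36 (SE 0.24, adjusted p = 0.00086). With the offsets and without library 1 together, an alternative added after the data were seen, the median was -0.15, 4 genes rose (RPL41, RPLP1, RPS16 and RPS21) and 15 fell, against 50.9% of all genes. RPS16, RPS21 and RPLP1 passed upwards in each of these fits.

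CTCFL-KD was also set against CTCFL-OE, with the same CTCFL-KD libraries. The Control libraries are not compared here but enter the shared variance estimate, and the calls below fell to 6 without any 1 of them and to 2 with both groups fitted alone. 11 members rose, among them RPL37A, RPL38, RPL39, RPL41, RPLP1, RPS16, RPS18, RPS21, RPS27 and RPS9, and 0 fell (14.3% of the members), where 15.3% of all genes rose and 11.5% fell. Their log2 differences ran from 0.85 for RPL39 to 1.95 for RPS16 (SE 0.40, adjusted p = 0.0051), and the members' median was 0.74, or 0.033 without CTCFL-KD library 1 and 0.48 with length and GC offsets. Without that library 12 rose, the same 11 and RPL10, and 4 fell, among them RPL17, RPL36A and RPS2, where 21% of all genes rose and 18.7% fell. The comparisons with Control share the Control libraries, so their values for a gene are not independent of each other.

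The groups related to the family were taken from lists. Of the 8 paralogs, which replace a family member in some tissues, 6 were tested and 0 passed against Control. RPL7L1 had 182, 186 and 195 CPM in Control and 141, 138 and 134 in CTCFL-KD, including library 1 (-0.45, SE 0.17, adjusted p = 0.053). RPL22L1, RPL26L1 and RPL36AL followed the family, above Control in library 1 and below it in libraries 2 and 3, RPL39L was above Control in all 3 (42.5, 20.3 and 20.4 against 16.7 to 17.8 CPM, adjusted p = 0.080), and RPS27L had 29.5, 13.6 and 10.8 CPM. RPL3L and RPL10L did not pass the low-count filter. Without library 1, RPL7L1, RPL22L1, RPL26L1 and RPL36AL fell.

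The other TOP messages, which share the pyrimidine start but code for translation factors and host genes of small RNAs, showed 0 that rose and 2 that fell among 23 tested in CTCFL-KD, with a median of -0.051 (-0.29 without library 1), where 21.4% of all genes tested rose and 16.8% fell. These were the chaperones NAP1L1 (-0.83, SE 0.22, adjusted p = 0.011) and NPM1 (-0.85, SE 0.28, adjusted p = 0.033), the latter of the nucleolus. NAP1L1 had 613, 630 and 630 CPM in Control and 445, 304 and 308 in CTCFL-KD (-1.03, adjusted p = 0.00032, without library 1). With length and GC offsets NAP1L1 no longer passed (-0.19, adjusted p = 0.69). The offsets took its canonical length of 13159 bases, against a median of 3362 over the protein-coding genes tested. NPM1 missed without any 1 Control library (adjusted p 0.070 to 0.10) and without CTCFL-KD library 2 or 3 (0.097 and 0.10). GAS5, a snoRNA host, had 0.79 (adjusted p = 0.051) and EIF3E -0.55 (adjusted p = 0.068). With the offsets GAS5 rose (0.67, adjusted p = 0.022). NPM1 (-0.74, adjusted p = 0.017), EEF1D (-0.57, adjusted p = 0.0029) and PABPC1 (-0.47, adjusted p = 0.038) fell with them. Of 42 ribosome biogenesis genes, 14 fell and 1, FBL, rose, with a median of -0.38 (-0.48 without library 1). The lowest adjusted p belonged to SBDS, which helps to release a maturation factor from the new large subunit (-1.05, SE 0.16, adjusted p = 0.00062), UTP15 (-1.0), WDR43 (-1.06) and NOP58 (-0.99). SBDS had 45.2, 47.0 and 46.4 CPM in Control and 21.8, 23.9 and 21.3 in CTCFL-KD, so here library 1 lay with the other CTCFL-KD libraries.

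Of 77 mitochondrial ribosomal protein genes tested, 3 rose (MRPS6, MRPL12 and MRPL24) and 8 fell, where 21.4% of all genes tested rose and 16.8% fell. Among the 8 were MRPL42 (-0.85, adjusted p = 0.0049), MRPL3 (-0.77), MRPL49 (-0.66) and MRPL19 (-0.69). With length and GC offsets MRPL42 (adjusted p = 0.30) and MRPL19 (0.38) no longer passed. The list's median was 0.15, or -0.35 without library 1. Without library 1 the other TOP messages had 0 that rose and 8 that fell, the biogenesis genes 1 and 27 and the mitochondrial ribosomal proteins 4 and 41, where 26.2% of all genes rose and 23.7% fell. In edgeR's fit of CTCFL-OE with all libraries and no offsets, 0 genes of any of the lists passed. The medians were -0.30 over the paralogs and -0.20 over the other TOP messages. They were -0.097 over the biogenesis genes and -0.20 over the mitochondrial ribosomal proteins, beside -0.24 over the cytosolic family. With length and GC offsets the lists held calls, such as GAS5 (0.66, adjusted p = 0.094) and the biogenesis gene UBTF (-0.37, adjusted p = 0.088). Without CTCFL-KD library 1, 3 paralogs fell, 1 of the other TOP messages rose and 4 fell, 7 biogenesis genes fell, and 3 mitochondrial ribosomal protein genes rose and 16 fell in CTCFL-OE, where 27.4% of all genes passed. MYC, an activator of ribosomal genes, did not pass in either comparison with Control and all libraries, at 0.32 (adjusted p = 0.43, and 0.077, which passes, without CTCFL-KD library 1) for CTCFL-OE and -0.15 (adjusted p = 0.59) for CTCFL-KD, as log2 fold changes.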

How the data were processed

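OVCAR3 RNA was sequenced with paired-end reads from a stranded mRNA kit. The authors used Trimmomatic for trimming, STAR for alignment to GRCh38 and featureCounts for counting, and the deposited values are raw counts per gene. The labels also name kallisto. The annotation release and the handling of strand and multi-mapping reads are not given in the sources used here. The counts in the 9 single-library files equal those in the matrix. Genes were matched by identifier to GENCODE 44 (60419 of 60660).

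Counts were fitted with edgeR 4.0.16 in R 4.3.3 (filterByExpr, TMM, robust quasi-likelihood fit on group, all 9 libraries) with Benjamini-Hochberg adjustment over 17794 genes, at 0.1 for CTCFL-OE against Control and 0.05 otherwise, after the thresholds of the study's methods. CPM uses TMM-scaled totals. DESeq2 1.42.0, other scalings and filters, length and GC offsets, a replicate block and leaving out each library were alternatives. Same-numbered Control and CTCFL-KD libraries deviated together from their group means over 11081 genes (r = 0.40, 0.23 and 0.29). With length and GC trends removed these were 0.15, 0.16 and 0.14. Differently numbered libraries gave -0.41 to 0.18, and -0.17 to -0.017 with the trends removed. Whether the numbers mark pairs was not tested. CTCFL-OE and Control gave r = -0.054, 0.22 and -0.045. The labels call replicates independent, and p-values measure the spread between these libraries of 1 line.

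Members and lists were chosen with earlier results of these data known. Genes were named by rule: the 5 highest and 5 lowest members per comparison with Control, RPLP0, RPLP1, RPLP2, RPSA and 9 preset members, the paralogs, at most 4 genes with the lowest adjusted p of each other list, the 3 highest and lowest levels, and members that changed sign without CTCFL-KD library 1. Gene lists of other kinds were left out. Values of some members are not reported here by name, though the counts and medians over the family include them.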

Additional observations from a re-analysis of the deposited data

How the results depend on the processing

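No alternative turned the members' direction in CTCFL-OE, and 0 passed except under the settings named here, with 1 call when the 2 groups were fitted alone. In CTCFL-KD against Control the 5 calls became 12 with DESeq2, 21 with no low-count filter, 2 with the 2 groups alone, 11 with length and GC offsets and 12 with these and the replicate block. Against CTCFL-OE the 11 calls became 19, 35, 2, 18 and 23 in the same order. Of the members 24.7% rose there with DESeq2 and 44.2% with no low-count filter, where 13.4 and 8.77% of all genes did. Without CTCFL-KD library 1 and with the offsets, a setting added after the data were seen, the calls were 11, 19 and 17 in CTCFL-OE against Control, CTCFL-KD against Control and CTCFL-KD against CTCFL-OE, where 27.7, 50.9 and 41.1% of all genes were called, and the medians of the latter 2 were -0.15 and 0.055. With the replicate block and the offsets these medians were 0.18 and 0.45. The replicate block alone left 5 calls in CTCFL-KD against Control, with a median of 0.32, and changed no other call by over 1.5 times. Why the counts of calls moved was not tested, beyond the number of genes and libraries that each setting changes.

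Leaving out 1 library at a time gave 0 to 6, 1 to 19 and 1 to 25 calls in the 3 comparisons in that order and medians from -0.41 to -0.15, from -0.20 to 0.72 and from 0.033 to 0.97. In CTCFL-KD against Control the calls were 19 without CTCFL-KD library 1, 17 without library 2, 14 without library 3, 1 or 2 without a Control library and 2 or 3 without a CTCFL-OE library. Against CTCFL-OE they were 25 and 24 without CTCFL-KD libraries 2 and 3, 6 without any Control library, and 6, 1 and 2 without CTCFL-OE libraries 1, 2 and 3. The share of counts ran from 6.0 to 6.09% in Control, 4.37 to 5.59% in CTCFL-OE and 5.21 to 7.85% in CTCFL-KD. The Control share of 6.04% was 6.44% without chromosome M genes and 6.96% with pseudogene counts added. The length correlation of -0.65 was -0.51 with the union of exons and -0.47 with the coding sequence.

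The reported fold changes in CTCFL-KD against Control that changed sign without a library ran over these ranges: RPL10A -0.0034 to 0.63, RPL11 -0.44 to 0.44, RPL12 -0.60 to 0.32, RPL13 -0.35 to 0.74, RPL14 -0.55 to 0.17, RPL15 -0.092 to 0.42, RPL19 -0.29 to 0.31, RPL21 -0.52 to 0.48, RPL22 -0.52 to 0.27, RPL22L1 -0.80 to 0.044, RPL23 -0.22 to 0.60, RPL23A -0.12 to 0.21, RPL24 -0.49 to 0.43, RPL26 -0.26 to 1.01, RPL26L1 -0.38 to 0.41, RPL27 -0.20 to 0.85, RPL27A -0.24 to 0.75, RPL28 -0.14 to 1.05, RPL3 -0.25 to 0.44, RPL31 -0.14 to 0.81, RPL32 -0.16 to 0.82, RPL34 -0.075 to 1.09, RPL35 -0.23 to 1.07, RPL35A -0.0056 to 0.94, RPL36 -0.075 to 1.18, RPL36A -0.42 to 0.044, RPL36AL -0.56 to 0.69, RPL37 -0.11 to 0.90, RPL5 -0.64 to 0.076, RPL6 -0.41 to 0.38, RPL7 -0.59 to 0.13, RPL8 -0.32 to 0.72, RPL9 -0.29 to 0.68, RPLP0 -0.38 to 0.36, RPLP2 -0.35 to 0.87, RPS13 -0.32 to 0.46, RPS14 -0.069 to 0.79, RPS15 -0.23 to 1.0, RPS15A -0.22 to 0.40, RPS19 -0.12 to 1.0, RPS2 -0.77 to 0.091, RPS20 -0.28 to 0.65, RPS23 -0.39 to 0.22, RPS24 -0.39 to 0.74, RPS25 -0.049 to 0.84, RPS26 -0.51 to 0.65, RPS27A -0.58 to 0.36, RPS27L -0.46 to 0.35, RPS3A -0.48 to 0.23, RPS4X -0.42 to 0.47, RPS6 -0.17 to 0.58, RPS7 -0.15 to 0.63, RPSA -0.58 to 0.13. In CTCFL-OE RPS10 ran from -0.20 to 0.0093. Other settings turned the sign of fewer fold changes in CTCFL-KD. With length and GC offsets these were RPL12 -0.31, RPL14 0.28, RPL19 -0.22, RPL23A -0.030, RPL24 -0.030, RPL3 -0.11, RPL7 0.046, RPL8 -0.23, RPLP0 -0.19, RPLP2 -0.082, RPS15 -0.058. With the replicate block and the offsets they were RPL11 -0.067, RPL12 -0.37, RPL14 0.038, RPL19 -0.23, RPL23A -0.031, RPL24 -0.093, RPL3 -0.14, RPL35 -0.012, RPL6 -0.011, RPL8 -0.28, RPLP0 -0.22, RPLP2 -0.14, RPS15 -0.11, RPS3A -0.047. The replicate block alone gave RPL12 -0.11, RPL22 -0.086, RPS23 -0.048, RPS27A -0.057, RPS27L -0.045, RPS3A -0.099. With no low-count filter they were RPL12 -0.035, RPL22 -0.060, RPL23A -0.0064, RPS23 -0.057, RPS27A -0.0020, RPS27L -0.016, RPS3A -0.089. DESeq2 gave RPL22 -0.011, RPS23 -0.011, RPS3A -0.041, and scaling by relative log expression gave RPS3A -0.014. The lowest count of a tested member in a library was 100, and the part of depth in the standard errors was not tested.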

Other observations

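Pseudogenes named after the family were also counted. Of 1587 listed, 1017 had at least 1 count, 235 passed the low-count filter, and the 10 highest held 46.6% of all pseudogene counts. In CTCFL-KD against Control 14 rose and 1 fell, with a median log2 fold change of 0.38, and without CTCFL-KD library 1 the median was -0.20, with 9 that rose and 32 that fell among 243. Over all genes tested 21.4% rose and 16.8% fell with all libraries, and 26.2 and 23.7% without that library. In CTCFL-OE 0 passed in edgeR's fit with all libraries and no offsets, and 3 rose and 7 fell without CTCFL-KD library 1. RPS29P11 (2.75, SE 0.62, adjusted p = 0.0054), RPL17P50 (1.74, adjusted p = 0.0062), RPL36AP26 (1.46, adjusted p = 0.020) and RPL10P6 (1.72, adjusted p = 0.023, and 0.058 without CTCFL-KD library 1) had the lowest adjusted p in edgeR's quasi-likelihood test, all at low levels, RPS29P11 with 0.203 to 0.551 CPM in Control and 6.22, 1.31 and 1.81 in CTCFL-KD.

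For 3 members the pseudogenes were counted more than the gene. Over the 9 libraries RPL36A had 1426 counts and its pseudogenes 23874, RPL17 had 2876 counts and its pseudogenes 33895, and RPL21 had 67035 counts and its pseudogenes 84339. Whether these are reads of the gene placed on its copies was not tested.

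The 28 members that host small nucleolar RNAs in their introns, 60 in all, had a median log2 fold change of 0.39 in CTCFL-KD and the 49 other tested members 0.58. Without CTCFL-KD library 1 the medians were -0.26 and -0.14. Across the 77 members the fold change in CTCFL-KD had a Spearman correlation of -0.21 with transcript length (-0.13 without library 1), of -0.48 with coding length (-0.38) and of 0.36 with GC content (0.25), a description over genes that share libraries.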
